A study of Homo sapiens with 8 samples.

Results

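The NRF2, glutathione and antioxidant genes are a set of 48 human genes that keep the cell's thiols reduced and detoxify peroxides, quinones, carbonyls and heme. Members were chosen by gene symbol and matched to the probes of the arrays through the RefSeq accession of each probe. Of the 48 genes, 47 had a probe and 45 were tested, among 15455 genes tested in all. AKR1C2 had no probe that mapped to it, and NFE2L2 and MGST1 were not well above background on any of the 8 arrays.

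RNA was taken from OAW42-R cells, a cisplatin-resistant derivative of the human ovarian carcinoma line OAW42, and was hybridized to one-color Agilent 8x60k arrays. Each condition had 4 arrays. The sictrl cells received a non-targeting siRNA pool and the siUCA1 cells a pool of siRNAs against both isoforms of the long noncoding RNA UCA1, each at 20 nM. The labels put the RNA at 24 h after transfection and the study's methods at 72 h. The methods describe 4 independent experiments, all in this single resistant line.

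NRF2, encoded by NFE2L2, is a transcription factor that KEAP1 marks for degradation in unstressed cells, so that its activity is set mostly at the protein level. When KEAP1 is blocked by electrophiles or oxidants, NRF2 pairs with small MAF proteins such as MAFG and binds the antioxidant response element in front of its targets. The targets supply glutathione, reduce thioredoxin and peroxiredoxins, and conjugate, reduce or export reactive compounds. High activity of the pathway is known for its link with resistance to platinum drugs, which glutathione can bind.

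The promoters shown here are those of members whose window holds the core of the antioxidant response element, and they cover a member that rose, members with a higher value that missed the threshold, and members whose values hardly differed. The letters searched were TGACNNNGC for the core element and TGANTCA for the AP-1 site, on both strands, in windows of 250 bases before to 50 bases after the start from RefSeq (GRCh38.p14). Capitals mark each match to TGACNNNGC or its reverse complement.
GSTA4, chr6:52995235-52995534, minus strand: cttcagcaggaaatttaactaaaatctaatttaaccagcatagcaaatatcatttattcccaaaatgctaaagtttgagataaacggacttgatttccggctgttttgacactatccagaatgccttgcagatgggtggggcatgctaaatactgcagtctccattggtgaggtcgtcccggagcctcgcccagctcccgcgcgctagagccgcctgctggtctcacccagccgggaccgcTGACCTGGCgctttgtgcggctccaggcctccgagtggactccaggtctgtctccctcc
TXNRD1, chr12:104215529-104215828, plus strand: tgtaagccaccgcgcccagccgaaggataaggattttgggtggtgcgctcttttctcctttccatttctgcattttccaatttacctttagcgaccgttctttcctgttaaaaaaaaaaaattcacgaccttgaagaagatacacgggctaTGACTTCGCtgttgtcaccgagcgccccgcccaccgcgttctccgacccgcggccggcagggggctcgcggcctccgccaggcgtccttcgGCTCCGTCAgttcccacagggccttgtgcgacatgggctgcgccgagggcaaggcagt
GSTP1, chr11:67583562-67583861, plus strand: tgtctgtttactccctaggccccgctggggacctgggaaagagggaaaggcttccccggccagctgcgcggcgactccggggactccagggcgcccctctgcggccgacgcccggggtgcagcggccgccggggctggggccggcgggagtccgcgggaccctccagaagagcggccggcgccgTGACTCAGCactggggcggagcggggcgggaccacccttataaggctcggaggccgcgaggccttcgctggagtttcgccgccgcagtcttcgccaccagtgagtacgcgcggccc
GCLM, chr1:93909381-93909680, minus strand: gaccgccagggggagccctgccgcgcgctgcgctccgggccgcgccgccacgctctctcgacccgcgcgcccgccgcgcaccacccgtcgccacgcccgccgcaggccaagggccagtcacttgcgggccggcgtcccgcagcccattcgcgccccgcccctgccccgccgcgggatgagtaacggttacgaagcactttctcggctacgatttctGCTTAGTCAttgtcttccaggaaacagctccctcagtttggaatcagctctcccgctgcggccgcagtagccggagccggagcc
SLC3A2, chr11:62881449-62881748, plus strand: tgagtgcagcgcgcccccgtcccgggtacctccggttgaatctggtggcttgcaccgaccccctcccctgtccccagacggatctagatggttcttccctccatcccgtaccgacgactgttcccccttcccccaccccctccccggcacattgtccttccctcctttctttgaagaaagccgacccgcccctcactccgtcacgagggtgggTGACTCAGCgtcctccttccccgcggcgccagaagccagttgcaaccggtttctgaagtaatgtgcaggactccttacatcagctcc

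A window was given for 38 members. The core element was present in 8 of them (21.1%), against 13.6% of all 27305 promoters of the table, and the AP-1 site was present in 3 (7.89%), against 7.76%. Both motifs overlapped in GSTP1 and SLC3A2, that is in 2 of 38 members (5.26%), against 0.564% of all promoters. The match began 9 bases before the start in GSTA4, 66 in GSTP1, 37 in SLC3A2 and 34 in GCLM, and TXNRD1 held one at 99 and another at 8 bases. The other matches were in GSTM1, GSTO1 and GPX2. AKR1C1 and PRDX2, which rose, held neither motif in this window. Windows were not given for AKR1B10, FTH1, GSR, GSS, HMOX1, MGST2, PRDX1, PRDX6, SLC7A11 and SOD1.

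Levels are given as the log2 processed signal of the brightest detected probe of a gene minus the log2 of its array's 75th percentile, so that 0 is the level of that percentile. They compare arrays, not genes, because probes differ in brightness. Arrays are given in the order A1, M2, A2 and A3, the replicate names of the labels. UCA1 itself was at 8.35, 8.37, 8.60 and 7.48 in sictrl and at 3.68, 2.59, 3.02 and 3.34 in siUCA1. It fell by 5.04 on the log2 scale (SE 0.29, adjusted p = 0.000122 in limma, n = 4 per group), which is 97.0% lower, with no overlap between the groups. The epithelial markers EPCAM, KRT7, KRT8, KRT18, KRT19, CDH1 and PAX8 were well above background on all 8 arrays, while WT1, MUC16, MSLN and WFDC2 were not on any. Of 11 leukocyte, endothelial and fibroblast markers, CD14 and VWF were well above background on all 8 arrays, COL1A1 on 5, PTPRC and PECAM1 on 1 each, and CD68 had no probe. CD14 rose by 0.70 and CDH1 fell by 0.81, and their part in the results here was not tested. In bulk RNA, fewer cells of a type and less RNA per cell cannot be told apart.

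A pair of arrays stood apart in the surface trend that the scanner software fitted and removed, sictrl A3 (root mean square 0.321) and siUCA1 A1 (0.287), against 0.0737 to 0.0943 on the other 6. Counts of members called are therefore also given without them. All 8 arrays lay on 1 slide and were scanned at 1 time.

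Among the 45 tested members, 4 rose in siUCA1 and 0 fell at an adjusted p under 0.05: SLC7A11, AKR1C1, GSTA4 and PRDX2. They make 8.89% of the tested members, against 11.6% of all genes tested. Of all genes, 5.72% were higher and 5.85% were lower. At an unadjusted p under 0.05 in limma there were 14 of the 45 tested members, and 4263 of all 15455 genes tested. The fold change was above 0 for 35 members and below 0 for 10, where 54.2% of all genes tested were above 0. The median log2 fold change of the members was 0.21, and that of all genes 0.03. The groups did not overlap for 10 members (22.2%), 8 higher and 2 lower, against 20.9% of all genes. With all 8 arrays in this fit, the share called was below that of all genes, and the share without overlap was near it.

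The count depended on the arrays. Without sictrl A3 and siUCA1 A1, 16 members were higher and 2 lower, which is 40.0% of members, where 25.6% of all genes were called. The groups then did not overlap for 32 members (71.1%), against 45.9% of all genes. Those higher were the 4 above with GCLC, TXNRD1, PRDX1, PRDX5, GPX2, GPX3, GPX4, GSTP1, GSTM4, HMOX1, AKR1C3 and FTL, and those lower were GGT1 and GPX8. Without sictrl A3 alone 12 were higher, 26.7% of members against 14.7% of all genes. Without siUCA1 A1 alone 7 were higher and 1 lower, 17.8% against 14.9%. Without any single one of the other 6 arrays SLC7A11 alone was called, 2.22% of members against 4.94% to 7.12% of all genes. With all arrays and the replicate name as a block, 8 members were called higher, 17.8% of members against 11.2% of all genes.

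**Figure D1:**
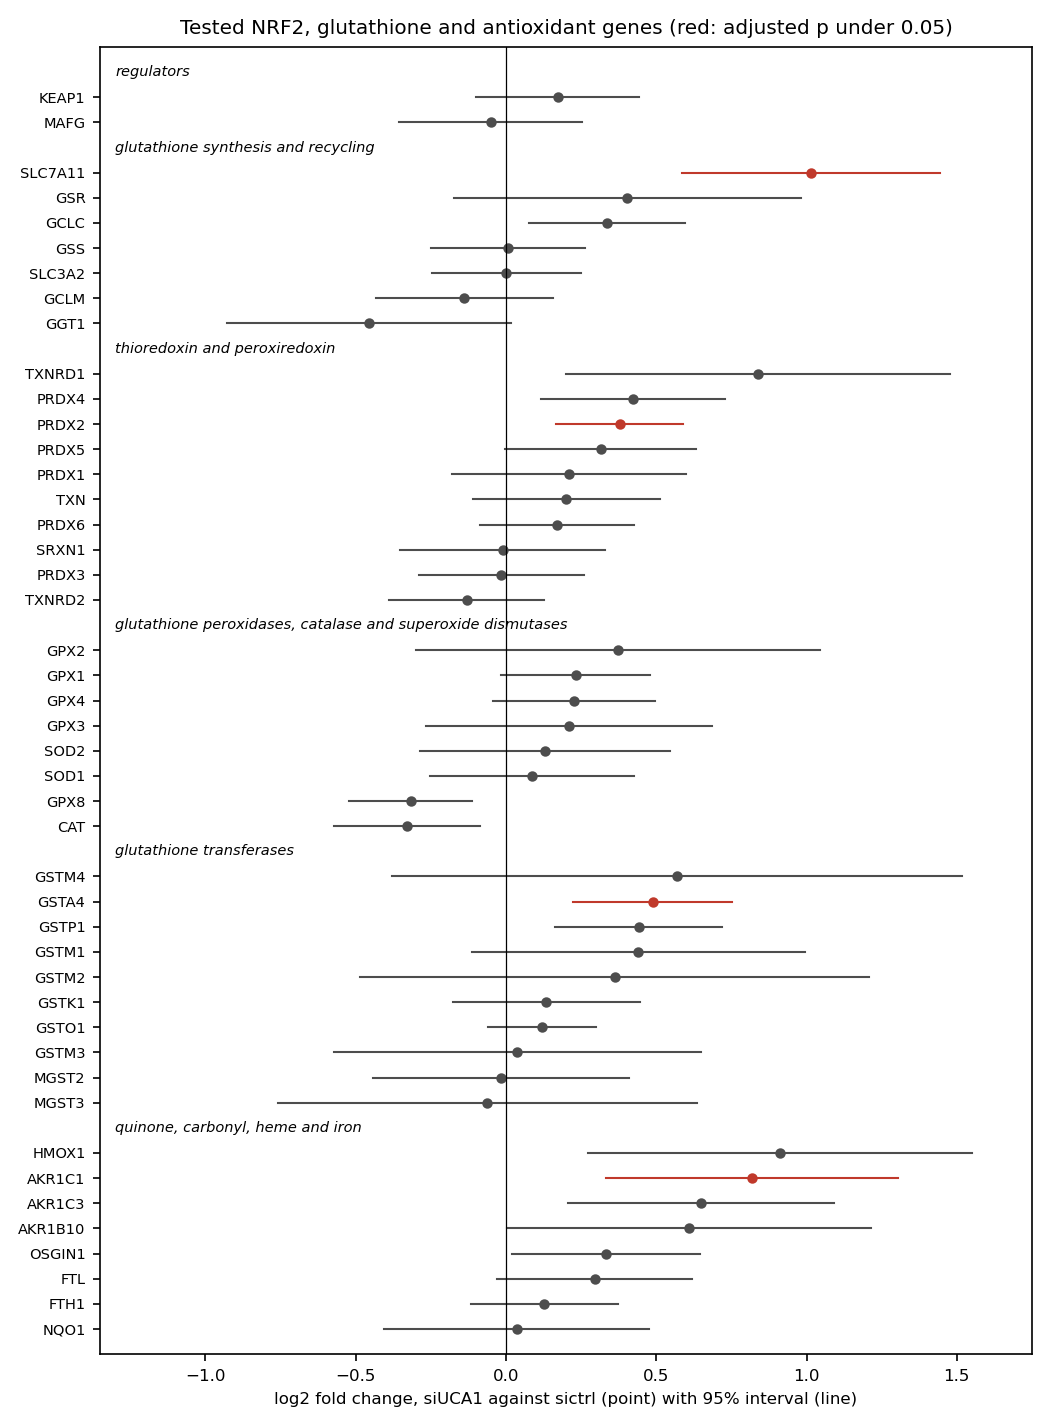
The log2 fold change of siUCA1 against sictrl (x axis) is plotted for the 45 tested members by role, with points for the estimate and lines for the 95% interval. Red marks the 4 members that passed the threshold, and 35 points lie above 0.

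Neither of the 2 tested regulators passed the test, with or without the 2 arrays of strong surface trend, and NFE2L2 was not tested. It was at -4.88, -4.66, -5.07 and -5.10 in sictrl and at -5.01, -4.94, -4.03 and -5.06 in siUCA1, not well above background on any array. NFE2L2 had only 1 probe, so these values do not show that its transcript was absent. KEAP1, the adaptor that brings NRF2 to its ubiquitin ligase, was at 4.57, 4.47, 4.63 and 4.14 in sictrl and at 4.57, 4.67, 4.59 and 4.68 in siUCA1. The groups overlapped, with a log2 fold change of 0.17 (95% interval -0.10 to 0.44, adjusted p = 0.396). MAFG, a small MAF partner of NRF2, was at 3.51, 3.40, 3.40 and 3.20 in sictrl and at 3.65, 3.30, 3.25 and 3.10 in siUCA1. Its difference was -0.05 (adjusted p = 0.848), and its second probe gave 0.04.

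Of the 7 genes of glutathione synthesis and recycling, 1 rose and 6 did not pass (14.3% called, against 11.6% of all genes). Without the 2 arrays of strong surface trend 2 were higher and 1 lower (42.9%, against 25.6% of all genes). SLC7A11, the light chain of the cystine and glutamate exchanger that imports the cysteine needed for glutathione, was at 2.49, 2.15, 2.01 and 2.68 in sictrl. In siUCA1 it was at 3.23, 3.29, 3.11 and 3.76, so that every siUCA1 array was above every sictrl array. The log2 fold change was 1.02 (SE 0.19, adjusted p = 0.0125), a 2.02-fold rise, higher in 4 of 4 comparisons of arrays with the same replicate name. The two-sided exact permutation test gave p = 0.0286, the smallest that 4 against 4 allows. Both this p and the 4 of 4 follow from the separation of the groups and add nothing to it. The difference was 1.42 in the first slide row and 0.61 in the second. SLC7A11 kept its call when any 1 of the 8 arrays was left out.

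SLC3A2, the heavy chain that carries SLC7A11 to the membrane, did not pass, at 0.00 (95% interval -0.25 to 0.25). GCLC, the catalytic subunit of the rate-limiting enzyme of glutathione synthesis, was at 2.20, 2.07, 2.00 and 1.97 in sictrl and at 2.19, 2.32, 2.47 and 2.61 in siUCA1. The sictrl A1 array reached the lowest siUCA1 array, and the difference was 0.34 (SE 0.11, adjusted p = 0.0945). GCLM, its modifier subunit, was at 3.83, 3.77, 3.59 and 4.00 in sictrl and at 3.39, 3.81, 3.65 and 3.79 in siUCA1, a difference of -0.14 (95% interval -0.43 to 0.16, adjusted p = 0.538). GGT1, which splits extracellular glutathione, had the lowest value of the group, -0.46 (adjusted p = 0.195) on its brightest probe. Without sictrl A3 that value was -0.27 (adjusted p = 0.288), and without both arrays of strong surface trend -0.41 (adjusted p = 0.0158). Its second probe gave -0.80 (adjusted p = 0.017 over all probes), so its probes differed in the call but not in direction.

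Of the 10 thioredoxin and peroxiredoxin genes, 1 rose, near the 11.6% of all genes. Leaving out the 2 arrays gave 4 higher (40.0%, against 25.6% of all genes). PRDX2, a peroxiredoxin that reduces hydrogen peroxide, was at 4.62, 4.48, 4.66 and 4.70 in sictrl and at 4.96, 4.97, 5.12 and 4.92 in siUCA1. The groups did not overlap, and the log2 fold change was 0.38 (SE 0.09, adjusted p = 0.0343), at 0.37 and 0.38 in the slide rows. TXNRD1, which reduces thioredoxin with NADPH, was at 0.91, 0.56, 0.46 and 0.02 in sictrl and at 0.59, 1.34, 1.49 and 1.89 in siUCA1. Its siUCA1 A1 array lay within the sictrl range, and the difference was 0.84 (SE 0.28, adjusted p = 0.0907). Without the 2 arrays of strong surface trend it was 0.93 (adjusted p = 0.0122). SRXN1, which restores overoxidized peroxiredoxins, was at 4.38, 4.28, 4.39 and 4.56 in sictrl and at 4.78, 4.22, 4.12 and 4.45 in siUCA1. The groups overlapped, and its difference was -0.01 (95% interval -0.35 to 0.33). TXNRD2, the mitochondrial reductase, had the lowest value, -0.13.

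None of the 8 glutathione peroxidases, catalase and superoxide dismutases passed the test, with log2 fold changes from -0.33 (CAT, which breaks down hydrogen peroxide) to 0.37 (GPX2, an epithelial glutathione peroxidase). With these 2 arrays left out, 3 were higher and 1 lower (4 of 8, where 25.6% of all genes were called). For CAT every siUCA1 array was below every sictrl array (adjusted p = 0.0838). GPX8, named after its values were seen, was also lower without overlap, at -0.32 (adjusted p = 0.0557). Its second probe gave -0.12 (adjusted p = 0.577), with overlap. GPX2 spread widely in sictrl, from 5.53 to 6.99, with the highest level on A3. Without sictrl A3 its difference was 0.70 (adjusted p = 0.0184), and without both arrays of strong surface trend 0.61 (adjusted p = 0.0129). GPX3 moved likewise, from 0.21 to 0.44 without sictrl A3 (adjusted p = 0.0249).

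Of the 10 tested glutathione transferases, 1 rose, and 3 were higher without the 2 arrays (30.0%). Both shares are near those of all genes, 11.6% and 25.6%. GSTA4, which conjugates the lipid peroxidation product hydroxynonenal, was at -0.37, -0.49, -0.28 and -0.25 in sictrl and at -0.11, 0.13, 0.20 and 0.33 in siUCA1. The groups did not overlap, and the log2 fold change was 0.49 (SE 0.12, adjusted p = 0.0315), at 0.50 and 0.47 in the slide rows. Its second probe gave 0.77 (adjusted p = 0.096). GSTM4 had the highest value of the group, 0.57, with a wide interval (-0.38 to 1.52, adjusted p = 0.42). Without the 2 arrays of strong surface trend it was 1.15 (adjusted p = 0.0353). MGST3 had the lowest, -0.06, with 0.04 on its second probe. GSTP1, named after its values were seen, was higher without overlap at 0.44 (adjusted p = 0.0501).

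GSTM1, GSTM2, GSTM3 and GSTM4, named after their values were seen, were each lowest on the A1 array in both groups. On sictrl A1 they were at 1.98, -1.29, 8.05 and 0.63, and on siUCA1 A1 at 2.35, -1.32, 8.12 and 1.30. These genes are close in sequence, so which of them a probe reads is uncertain. Over all 45 tested members, sictrl A1 was lowest in its group for 24 and sictrl A3 highest for 30, and siUCA1 A1 was lowest for 23 and siUCA1 A3 highest for 25.

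**Figure D2:**
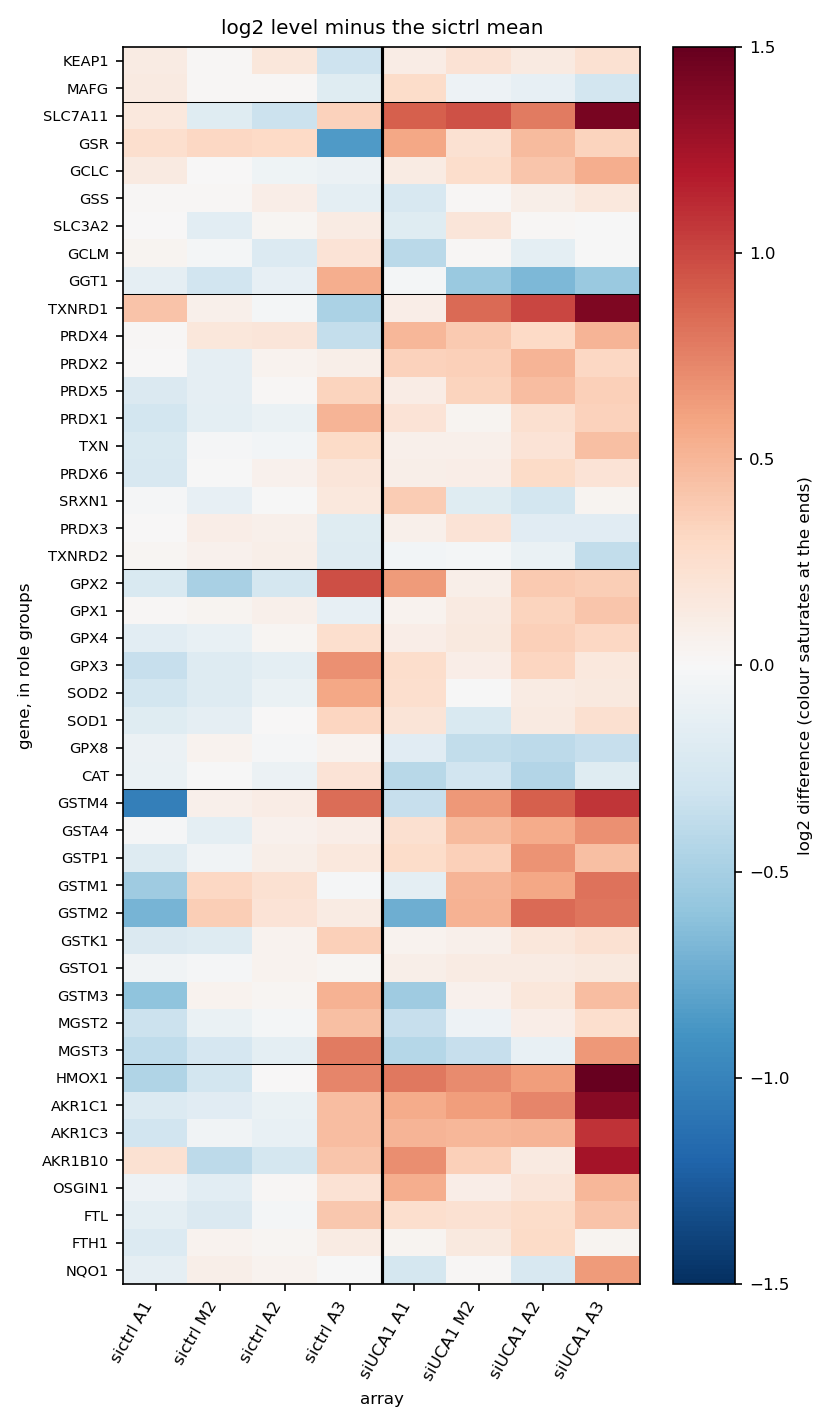
Each tile is the log2 level of a tested member (rows, in role groups) on an array (columns) minus its mean over the 4 sictrl arrays, from blue (lower) to red (higher). The sictrl A3 and siUCA1 A3 columns are red for many of the genes, as they were highest in their group for 30 and 25 of 45.

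The 8 tested genes of quinone, carbonyl, heme and iron metabolism all had values above 0, where 54.2% of all genes did, though NQO1 and FTH1 were below 0 under other scalings. Of the 8, 1 passed (12.5%, against 11.6% of all genes). When the 2 arrays were left out, 4 were higher (4 of 8, where 25.6% of all genes were called). AKR1C1, an aldo-keto reductase of steroids and carbonyls, was at 5.81, 5.85, 5.91 and 6.48 in sictrl and at 6.57, 6.64, 6.75 and 7.38 in siUCA1. The groups did not overlap, with sictrl A3 closest to the siUCA1 arrays. The log2 fold change was 0.82 (SE 0.21, adjusted p = 0.0422), a 1.76-fold rise, at 1.09 and 0.54 in the slide rows. Its second probe gave 0.40 (adjusted p = 0.39). AKR1C1 is close in sequence to AKR1C2 and AKR1C3, so which of them its probe reads is uncertain. AKR1C3 was higher without overlap at 0.65 (adjusted p = 0.0661).

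HMOX1, the enzyme that opens the heme ring, was at 5.18, 5.35, 5.63 and 6.36 in sictrl and at 6.43, 6.34, 6.26 and 7.14 in siUCA1. Only sictrl A3 reached the siUCA1 range, and the difference was 0.91 (SE 0.28, adjusted p = 0.0723), higher in 4 of 4 same-name comparisons, at 1.29 and 0.53 in the slide rows. Without the 2 arrays of strong surface trend it was 1.19 (adjusted p = 0.0157). AKR1B10, a carbonyl reductase, was at 1.31, 0.69, 0.82 and 1.50 in sictrl and at 1.78, 1.44, 1.22 and 2.33 in siUCA1, a difference of 0.61 (adjusted p = 0.179). The difference was 1.30 in the first slide row and -0.08 in the second. OSGIN1, an oxidative stress induced growth inhibitor, was at 0.94, 0.86, 1.04 and 1.24 in sictrl and at 1.57, 1.12, 1.21 and 1.52 in siUCA1, a difference of 0.33 (adjusted p = 0.156), at 0.59 and 0.07 in the slide rows. Neither gene separated the groups. NQO1, the quinone reductase that is often read as the pathway's marker, was at -0.39, -0.18, -0.20 and -0.27 in sictrl and at -0.53, -0.24, -0.50 and 0.38 in siUCA1. Its difference was 0.04 (95% interval -0.41 to 0.48, adjusted p = 0.93). The brightest FTH1 probe, for the ferritin heavy chain, gave 0.13 (adjusted p = 0.488). Over all probes, the second FTH1 probe gave 0.64 (adjusted p = 0.023) and the third 0.26 (adjusted p = 0.214).

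**Figure D3:**
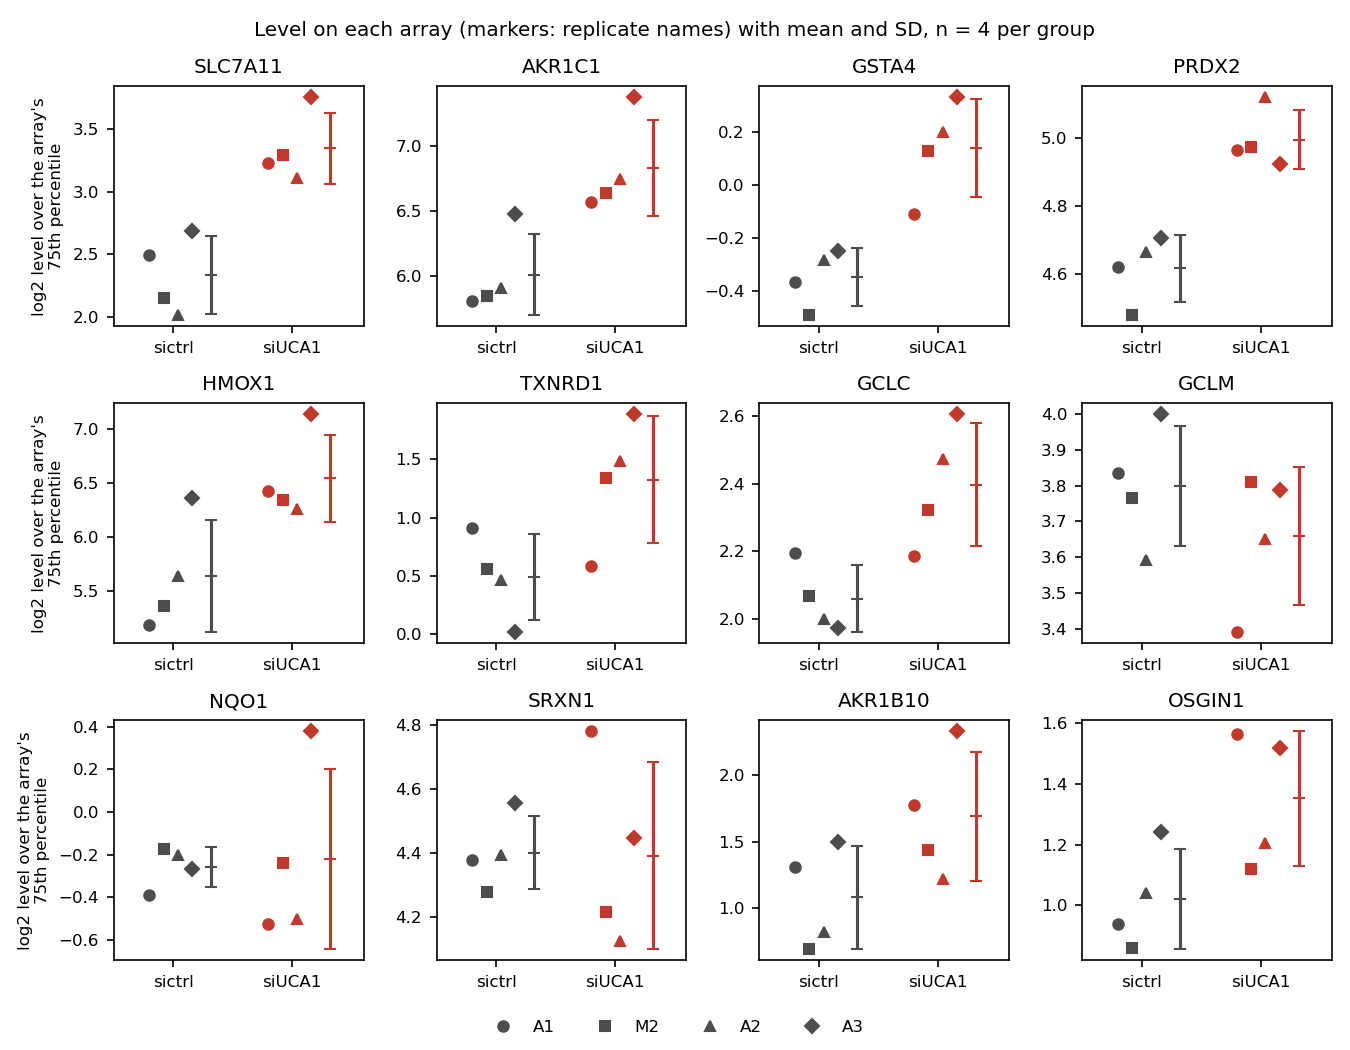
Log2 level over the array's 75th percentile (y axis) of 12 members in sictrl (gray) and siUCA1 (red), with 1 marker shape for each replicate name and the mean with SD at the right (n = 4 per group). The siUCA1 points lie above all sictrl points for SLC7A11, AKR1C1, GSTA4 and PRDX2, and the groups overlap for the other 8.

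PRDX2, GSTA4 and AKR1C1 each kept their call without sictrl A3 and without siUCA1 A1, and lost it when any 1 of the other 6 arrays was left out. With the slide row as a block, SLC7A11 was the only member called. With the replicate name as a block, SLC7A11, AKR1C1 and GSTA4 kept their call and PRDX2 lost it (adjusted p = 0.0550). HMOX1, AKR1C3, AKR1B10, GSTP1 and GSTM4 were then also called higher.

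**Figure D4:**
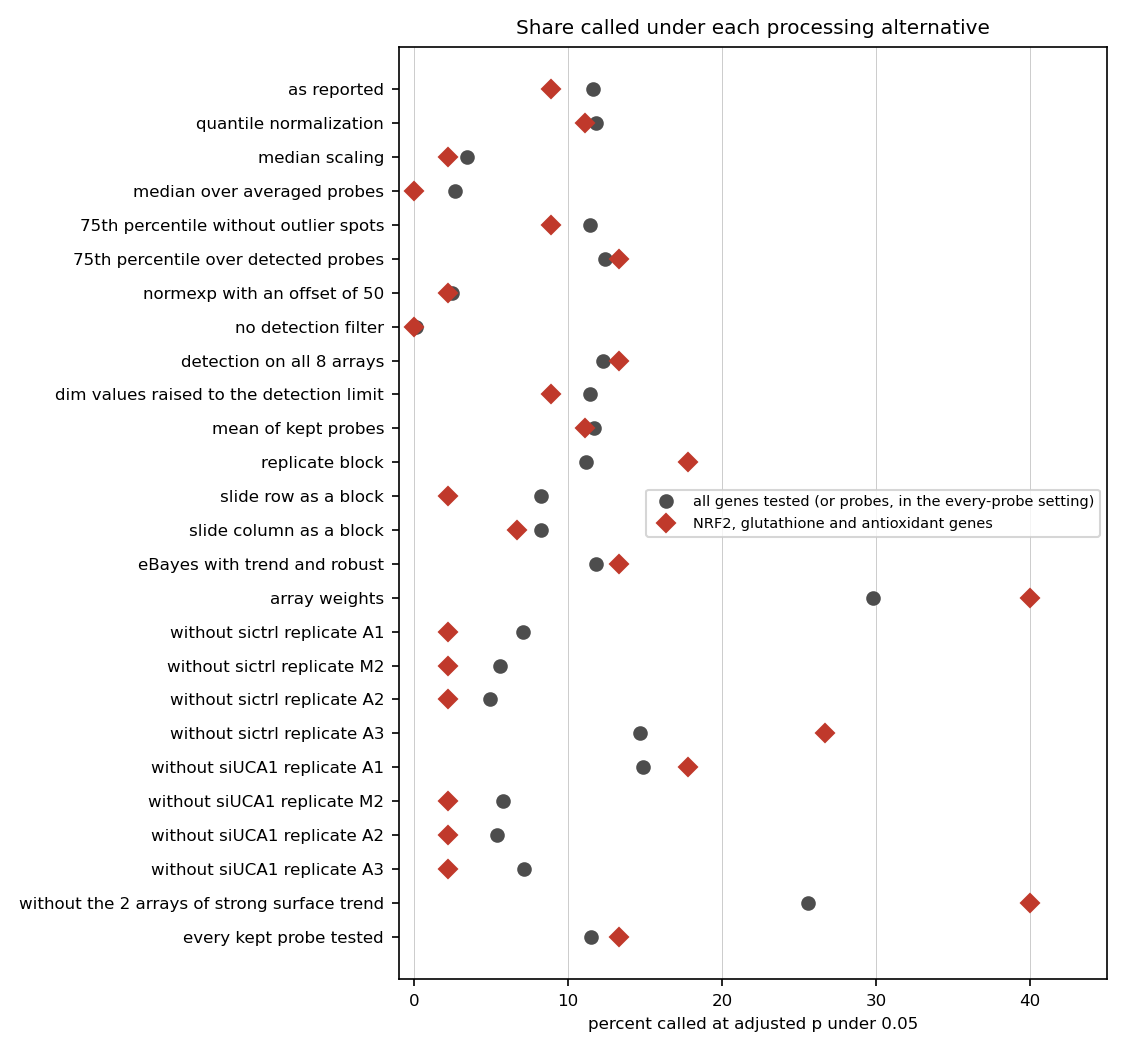
The share called at an adjusted p under 0.05 (x axis) among the tested members (red) and among all genes tested (gray) is plotted for each processing alternative (y axis). As reported the shares are 8.89% and 11.6%, and without the 2 arrays of strong surface trend 40.0% and 25.6%.

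Of 59 other genes of the pathway, listed from textbook knowledge, 46 were tested and 8 passed (17.4%), 6 higher and 2 lower, where 11.6% of all genes were called. Without the 2 arrays of strong surface trend 10 were higher and 3 lower (28.3%), against 25.6% of all genes. IDH1, which helps to supply NADPH, rose by 0.51 (adjusted p = 0.0116), and EPHX1, an epoxide hydrolase, rose by 0.57 (adjusted p = 0.0141). Both kept their call when any 1 array was left out, and lost it under 4 of 24 alternatives. The other 4 rises were less stable. BACH1, a repressor at the antioxidant response element, rose by 0.33 (adjusted p = 0.0497) and lost its call under 16 of 24 alternatives. GSTZ1, a glutathione transferase, rose by 0.49 (adjusted p = 0.0473) and lost it under 15. TKT, of the pentose phosphate pathway, rose by 0.32 (adjusted p = 0.0386) and lost it under 14. AKR1A1, a carbonyl reductase, rose by 0.33 (adjusted p = 0.0331) and lost it under 12. With 1 array left out, BACH1 and GSTZ1 kept their call in 1 of 8 fits, TKT in 2 and AKR1A1 in 3.

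GLRX, glutaredoxin, which removes glutathione from proteins, was at 2.28, 2.11, 2.37 and 3.14 in sictrl and at 1.31, 0.74, 0.84 and 1.19 in siUCA1. It fell by 1.46 on the log2 scale (SE 0.23, adjusted p = 0.0073), without overlap. AKR1B1, aldose reductase, was at 7.78, 7.73, 7.98 and 7.74 in sictrl and at 7.14, 7.03, 7.14 and 7.09 in siUCA1. It fell by 0.71 (adjusted p = 0.0036), without overlap. ABCC2, an export pump for glutathione conjugates, passed the detection threshold on 3 of 4 siUCA1 arrays and 0 of 4 sictrl arrays, and was not tested. Its siUCA1 mean was 1.36-fold the sictrl mean when each sictrl value was raised to the lowest detected signal of its array. This is a rough figure and not a lower bound.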

How the data were processed

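Gene expression was measured on 8 one-color arrays, 4 sictrl and 4 siUCA1, grouped by their labels. The authors deposited the Agilent Feature Extraction (10.7.3.1) output, an intensity per spot on a linear scale, background-subtracted and corrected for a surface trend but not normalized between arrays. The deposited value table held the same intensity values. The 48 genes and all lists were chosen with earlier results of these data known. Each log2 intensity was reduced by the log2 of its array's 75th percentile over all non-control spots. This spot set, and that of the median scaling, were settled after seeing how the number of calls compared with an earlier treatment of these data, and the forms first tried are among the alternatives. Control and outlier spots were left out, spots of a probe averaged, and a probe kept when every array of either group detected it well above background. A gene was read by its kept probe with the highest mean. Probes were named by RefSeq accession (GRCh38.p14), and 31104 of 58201 had a symbol. Groups were compared with limma 3.58.1 in R 4.3.3, with Benjamini-Hochberg adjustment over all 15455 genes, called at an adjusted p under 0.05. The procedure was also run on simulated arrays with independent noise, which cannot show how it handles differences shared by a whole array. Figures used matplotlib 3.10.9. Values on every array are given for members called, UCA1, the regulators and classic targets. Others are named where highest or lowest of their role, at least 0.5 from 0 and uncalled, not detected, or with disagreeing probes. The number of arrays limits the precision. Where experiments were not separate cultures, p-values would measure technical spread.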

Additional observations from a re-analysis of the deposited data

Results flagged for a closer look

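In 3 of 90 sets of 4 arrays (45 tested members in each group, 3.33%), 1 array lay far from the other 3 by the 95% limit of Dixon's test on the ratio of gap to range. Chance marks about 1 in 20 such sets. GSR, which reduces oxidized glutathione, was at 4.09 on sictrl A3, while the other sictrl arrays lay between 5.18 and 5.24 (ratio 0.950). Its second probe gave a log2 fold change of 0.02, against 0.40 on the brightest. Without sictrl A3 the brightest GSR probe gave 0.12. AKR1C1 was at 6.48 on sictrl A3 and at 5.81 to 5.91 elsewhere in sictrl (ratio 0.854). AKR1C3 was at 7.51 on siUCA1 A3 against 6.92 to 6.94 (ratio 0.973).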

How the results depend on the processing

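Of the 45 tested members, the 4 that rose kept their direction under all 24 alternatives, and 16 of the 41 others were called under at least 1. SLC7A11 lost its call under 2 of 24, no detection filter and the median over averaged probes. Members called higher, with the share of all genes called in either direction in brackets, numbered 1 with median scaling (3.46%), normexp (2.50%) and the slide row as a block (8.22%), 0 with no detection filter (0.159%), 2 with the slide column as a block (8.26%), 15 with array weights (29.8%), 16 without the 2 arrays of strong surface trend (25.6%), and 1 to 12 with 1 array left out (4.94% to 14.9%). Members called lower numbered 1 with quantile normalization, the 75th percentile over detected probes, detection on all 8 arrays, the mean of kept probes, trend and robust settings, and every probe tested (11.5% to 12.4% of all genes or probes called), 1 with the slide column as a block, 3 with array weights, 2 without the 2 arrays, and 0 to 1 with 1 array left out. The median of the members was 0.11 with median scaling, 0.32 without the 2 arrays and 0.13 to 0.30 with 1 array left out.

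The scaling was settled after counts of calls had been seen. As first tried, the median over averaged probes called 410 genes (2.65%) and 0 members (members' median 0.072), against 535 genes and 1 member for the median over all non-control spots, and the 75th percentile without outlier spots called 1766 genes and the same 4 members, against 1788. Of the calls, 49.4% were higher as reported, 21.3% with median scaling and 18.0% with the median over averaged probes, and the median of all genes was -0.07 with median scaling. All genes called numbered 386 with normexp, 76 with no detection filter, 4599 with array weights and 3952 without the 2 arrays.

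With the replicate name as a replicate block, 8 members were called higher and 0 lower (17.8% of members, where 11.2% of all genes were called). PRDX2 lost its call (adjusted p = 0.0550), and HMOX1 (0.0199), AKR1C3 (0.0186), AKR1B10 (0.0308), GSTP1 (0.0386) and GSTM4 (0.0408) were called. The labels do not say that a replicate name marks a shared batch, and the deviations of same-named arrays correlated at 0.0383 (A1), 0.278 (M2), 0.216 (A2) and 0.127 (A3) across genes. Of the 8 arrays, 5 correlated best with the array of their own name, a hint from the data and not from the design. The names were not taken to pair the arrays in the main fit, as the A1 pair correlated weakly. That pair holds siUCA1 A1, an array of strong surface trend, so its weak correlation does not settle whether the names mark shared experiments.

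Of the members, 15 that did not pass changed sign. These were with quantile normalization FTH1 (-0.020), GSS (-0.0069), GSTM3 (-0.12), SLC3A2 (-0.0081) and SOD1 (-0.023), with median scaling GSS (-0.089), GSTM3 (-0.057), NQO1 (-0.060), SLC3A2 (-0.094) and SOD1 (-0.010), and with the median over averaged probes FTH1 (-0.0082), GSS (-0.13), GSTK1 (-0.0016), GSTM3 (-0.10), GSTO1 (-0.016), NQO1 (-0.10), SLC3A2 (-0.13), SOD1 (-0.050) and SOD2 (-0.0072). SLC3A2 was at -0.00039 with the 75th percentile over detected probes and GSS at -0.036 with normexp. Array weights gave MGST2 0.12, MGST3 0.10 and NQO1 -0.028, and without the 2 arrays GCLM was at 0.018, MGST2 at 0.24 and MGST3 at 0.32. With 1 array left out the ranges were GSS -0.046 to 0.088, GSTM3 -0.16 to 0.23, MAFG -0.16 to 0.024, MGST2 -0.12 to 0.13, MGST3 -0.30 to 0.20, NQO1 -0.17 to 0.14, PRDX3 -0.088 to 0.038, SLC3A2 -0.057 to 0.063 and SRXN1 -0.14 to 0.079. The cause of these changes was not tested. Probes near background give less certain values.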
